A study of Mus musculus with 55 samples.

Results

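Lag3 and 8 genes of antigen presentation were followed in the ventral dentate gyrus of 54 male mice, which makes 9 of the 45318 genes in the deposited tables. The genes were taken by name. Lag3 was selected on its difference between susceptible and resilient mice raised in standard housing, so its values in every comparison with these mice are given as a description, without a test. The other members are B2m, H2-K1, H2-D1 and Tap1 of MHC class I presentation, and Cd74, H2-Aa, H2-Ab1 and H2-Eb1 of MHC class II presentation.

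The mice were male C57/BL6J animals raised from about weaning in standard housing (SH) or in an enriched environment (EE). They were then left unstressed as controls or exposed to chronic social defeat stress (CSDS), in which a mouse is repeatedly attacked by a larger CD1 aggressor. Defeated mice were ranked as resilient (RES) or susceptible (SUS) by a social interaction test. RNA of the isolated ventral dentate gyrus was sequenced from single mice, which comprised 10 SH control, 7 SH RES, 10 SH SUS, 9 EE control, 9 EE RES and 9 EE SUS mice. RES and SUS mice had therefore gone through the same defeat protocol and differed in their later social behavior, and no group carried a transgene or a drug.

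MHC class I molecules are found on nearly all nucleated cells. B2m encodes their invariant light chain, H2-K1 and H2-D1 encode the polymorphic heavy chains, and Tap1 encodes a subunit of the transporter that carries peptides into the endoplasmic reticulum for loading. MHC class II molecules are made mainly by professional antigen-presenting cells and display peptides to CD4 T cells. H2-Aa and H2-Ab1 encode the chains of the I-A molecule, H2-Eb1 encodes the beta chain of I-E, and Cd74 encodes the invariant chain that occupies the groove until a peptide replaces it. LAG3 is an inhibitory receptor that binds MHC class II and is best known from exhausted T cells. In healthy brain parenchyma class II is scarce and is known mainly from macrophages and dendritic cells of the meninges, perivascular spaces and choroid plexus, and Lag3 transcripts are known from microglia and neurons.

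Total gene counts ranged from 16760009 to 45872357 per mouse, with a median of 21552884, and the highest total belonged to EE control mouse 9, which was sequenced in 2 runs. The dentate identity was checked with marker lists, whose genes are given as summed levels over all 54 mice. All 8 dentate granule cell markers were measured, at 753 to 1509 CPM, against 139 to 338 CPM for 8 markers of CA3 and CA1 pyramidal cells. The 13 microglial markers reached 445 to 772 CPM, the 7 endothelial markers 159 to 247 CPM, the 8 border macrophage markers 13.8 to 27.4 CPM, the 6 meningeal fibroblast markers 31.3 to 110 CPM and the 7 dendritic cell markers 21.3 to 30.4 CPM. Most of the dendritic cell sum came from Flt3 and Zbtb46, with medians of 15.3 and 9.96 CPM. Xcr1, Clec9a and Ccr7 of that list had a median of 0, with no count in 42, 39 and 40 of 54 mice. Lymphocyte markers were near the floor. The 10 T and NK cell markers reached 1.64 to 3.74 CPM, and 7 of them had a median of 0. The 6 B cell markers reached 4.53 to 7.93 CPM and only 1 of them passed the filter on low counts. Choroid plexus markers spanned 16.6 to 988 CPM and red cell markers 52.2 to 441 CPM, so both varied between punches. In such bulk tissue, fewer cells of a type and less RNA per cell cannot be told apart.

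All 9 genes passed the filter and had counts in every mouse. Levels between genes were compared as CPM, the counts scaled to a common library size, per kilobase of exon. B2m was the most abundant, with a mean of 57.2 CPM per kilobase, followed by H2-D1 at 8.70 and H2-K1 at 6.12 CPM per kilobase. Cd74 stood at 0.703, Tap1 at 0.694, Lag3 at 0.604, H2-Eb1 at 0.441, H2-Ab1 at 0.247 and H2-Aa at 0.212 CPM per kilobase. The genes also differed in how much mice of the same group varied. The within-group coefficient of variation of CPM was 9.63% for B2m, 13.2% for Tap1, 14.8% for H2-D1, 15.2% for H2-K1 and 20.5% for Lag3, whereas it was 42.7% for H2-Eb1, 58.1% for Cd74, 60.4% for H2-Ab1 and 64.7% for H2-Aa. The low genes rest on few counts. Counting error alone gives a coefficient of variation of 19.1% at the median Lag3 count of 27.5, which is close to the observed spread, and one of 29.5% at the median H2-Ab1 count of 11.5.

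Lag3 (ENSMUSG00000030124) lies on chromosome 6 from 124904361 to 124911705 of GRCm38, on the minus strand, and had 14 to 60 counts per mouse. Its level was highest in SH RES mice. The 7 SH RES mice ranged from 1.34 to 1.90 CPM with a median of 1.64, and the 10 SH SUS mice from 0.669 to 1.57 CPM with a median of 1.10. Of the SUS mice, 9 of 10 were below every RES mouse, and 6 of 7 RES mice were above every SUS mouse, so the groups overlapped through 1 SUS mouse. The fitted log2 fold change of SH SUS against SH RES was -0.63 (standard error 0.15), the contrast on which Lag3 was selected. At the same time the 10 SH control mice ranged from 0.735 to 1.52 CPM with a median of 1.13, much as the SH SUS mice did. SH SUS mice differed from them by -0.10 on the log2 scale (standard error 0.14), which is less than its error. SH RES mice were above SH control mice by 0.53 on the log2 scale (standard error 0.15), and 6 of the 7 RES mice exceeded all controls.

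In EE, where Lag3 could be tested, RES and SUS mice were not separated. Whether the difference between SUS and RES mice depends on the housing was not tested, because the SH contrast had selected the gene. The 9 EE RES mice ranged from 0.921 to 1.55 CPM (median 1.18) and the 9 EE SUS mice from 0.792 to 1.52 CPM (median 1.33), and their ranges overlapped almost entirely. The log2 fold change of EE SUS against EE RES was 0.02 (standard error 0.15), with an adjusted p of 0.9997 in the quasi-likelihood test of edgeR. The 9 EE control mice had the widest range, from 0.790 to 1.93 CPM with a median of 1.41. Against them the log2 fold change was -0.24 in EE RES mice (standard error 0.14, edgeR adjusted p = 0.672) and -0.22 in EE SUS mice (standard error 0.14, edgeR adjusted p = 0.715), so neither comparison passed. Both share the EE control mice. EE control mice were above SH control mice by 0.31 on the log2 scale (standard error 0.14, unadjusted p = 0.0328 and adjusted p = 0.960 by edgeR), and 8 of 9 EE controls exceeded the SH control median.

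In order of the means, Lag3 measured 1.07 ± 0.245 CPM (SD, n = 10) in SH SUS, 1.15 ± 0.256 CPM (SD, n = 10) in SH control, 1.21 ± 0.204 CPM (SD, n = 9) in EE RES, 1.22 ± 0.257 CPM (SD, n = 9) in EE SUS, 1.44 ± 0.373 CPM (SD, n = 9) in EE control and 1.67 ± 0.192 CPM (SD, n = 7) in SH RES mice. Every step between neighbors up to EE control was smaller than the SD of either neighbor. The last step, of 0.229 CPM from EE control to SH RES, exceeded the SD of SH RES mice but not that of EE control mice, and their ranges overlapped. The defeat effect on Lag3 in EE minus that in SH was -0.44 on the log2 scale (standard error 0.17), a description in which the SH RES mice take part.

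**Figure D1:**
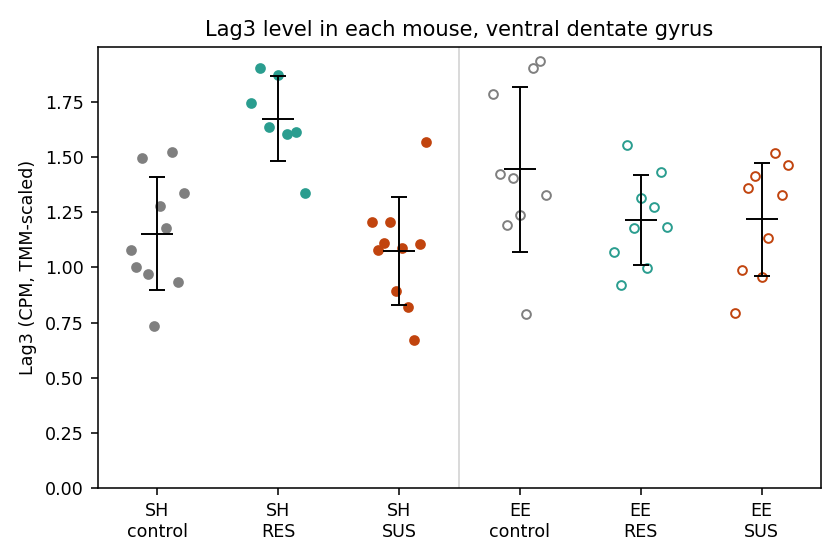
Lag3 level in CPM (y axis, linear from 0) in each mouse of the 6 groups (x axis), with filled points for SH and open points for EE and bars for the mean ± SD. The 7 SH RES mice sit between 1.34 and 1.90 CPM, and 9 of the 10 SH SUS mice lie below all of them, while EE RES and EE SUS mice overlap from 0.921 to 1.52 CPM.

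The genes beside Lag3 were inspected because reads of a neighbor could be counted on it. Ptms, which encodes parathymosin, lies 1976 bases upstream of Lag3 on the same strand and had a mean of 113 CPM. Its group means ran from 110 to 116 CPM, with 112 ± 6.82 CPM (SD, n = 7) in SH RES and 116 ± 7.53 CPM (SD, n = 10) in SH SUS mice, and its within-group deviations had a correlation of 0.080 with those of Lag3 over 54 mice. Cd4, the co-receptor gene that lies 16140 bases away on the other side, had 0 to 11 counts and did not pass the filter. It measured 0.258 ± 0.0968 CPM (SD, n = 7) in SH RES, 0.157 ± 0.0867 CPM (SD, n = 10) in SH SUS and 0.118 ± 0.0611 CPM (SD, n = 10) in SH control mice, and all 3 ranges overlapped. Of the genes tested at a mean of at least 1 CPM, the 5 whose within-group pattern was most like Lag3 were Star, the mitochondrial cholesterol carrier, with a Pearson r of 0.465, Uggt1 (0.459), Dnajc25 (0.448), Gen1 (0.446) and Zfp36 (0.443), among 15240 genes searched over 54 mice. Without the 2 mice farthest from the median of Lag3, these values were between 0.343 and 0.412. They were picked as the largest of that search and were not tested.

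Partners of LAG3 other than class II showed no group difference past the test. Of 6 listed ligands and sheddases, 4 passed the filter, and none had an adjusted p below 0.05 by edgeR or met the study's criterion in any of the 8 comparisons tested. Adam10, a protease that sheds LAG3 from the cell surface, measured 66.5 ± 2.74 CPM in EE SUS and 65.3 ± 1.94 CPM in EE RES mice (SD, n = 9 each). Of the soluble and lectin ligands, Lgals3 passed the filter, with a mean of 0.605 CPM and counts in every mouse. Fgl1 did not pass it, and Clec4g had no count in 50 of 54 mice. Among 13 other checkpoint receptors and ligands, 6 were tested and none passed by either rule. Cd200, a neuronal ligand that restrains myeloid cells, measured 69.6 ± 6.25 CPM in EE SUS and 67.1 ± 5.58 CPM in EE RES mice (SD, n = 9 each), and Cd274, which encodes PD-L1, measured 1.91 ± 0.490 and 1.77 ± 0.231 CPM (SD, n = 9 each). The T cell receptors Pdcd1, Ctla4 and Tigit were below the filter, with no count in 22, 23 and 44 of 54 mice.

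Among the class II genes, the 4 members had higher group means in SUS mice than in controls in both housings, without passing the adjusted threshold. The genes of the I-A and I-E chains lie on chromosome 17 of GRCm38, with H2-Ab1 from 34257689 to 34269419, H2-Aa from 34282744 to 34287823 and H2-Eb1 from 34305867 to 34316674. The promoters of H2-Aa and H2-Eb1 are shown because these genes varied together between mice, with H2-K1 of class I beside them. RefSeq promoters were at hand for 6 of the 9 genes, and the sequences run 5′ to 3′ on the strand of the gene and end at the base before the start of transcription. Capitals mark the Y box letters CTGATTGG and the letters TGACG on either strand.
H2-Aa, chr17:34287824-34287973, GRCm38.p6, minus strand: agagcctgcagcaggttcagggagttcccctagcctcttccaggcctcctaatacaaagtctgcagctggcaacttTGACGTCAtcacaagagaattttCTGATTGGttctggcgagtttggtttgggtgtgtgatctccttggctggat
H2-Eb1, chr17:34305717-34305866, GRCm38.p6, plus strand: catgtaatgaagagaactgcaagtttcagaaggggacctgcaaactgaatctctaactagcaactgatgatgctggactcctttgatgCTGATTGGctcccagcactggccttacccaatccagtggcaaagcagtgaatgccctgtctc
H2-K1, chr17:34000348-34000497, GRCm38.p6, minus strand: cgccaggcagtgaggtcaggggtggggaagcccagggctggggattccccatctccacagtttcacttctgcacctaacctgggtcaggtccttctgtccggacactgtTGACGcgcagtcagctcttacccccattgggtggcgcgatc

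The Y box is the inverted CCAAT element of the module that recruits the class II transactivator. It began 51 bases before the start in H2-Aa and 62 bases before it in H2-Eb1. Within 250 bases before the start, its letters on either strand were also found in H2-D1 and Tap1, so in 4 of the 6 genes, against 3.83% of the 32851 promoters in the table. The letters TGACG, which overlap their own complement in H2-Aa, occurred on either strand in 5 of the 6 genes (all but H2-Eb1), against 17.8% of all promoters. The interferon-gamma-activated letters TTCNNNGAA occurred in none of the 6, against 7.02% of all promoters. A match of letters is a description of the sequence and not a site.

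Cd74, on chromosome 18 from 60803848 to 60812652, had the largest log2 fold change of the 4 in EE SUS against EE control mice. The 10 SH control mice ranged from 0.138 to 1.964 CPM with a median of 0.733, the 7 SH RES mice from 0.538 to 1.42 CPM with a median of 0.861, and the 10 SH SUS mice from 0.553 to 3.48 CPM with a median of 1.13. In EE the 9 control mice ranged from 0.215 to 1.495 CPM (median 0.681), the 9 RES mice from 0.438 to 2.41 CPM (median 1.07) and the 9 SUS mice from 0.446 to 3.59 CPM (median 2.08). In both housings the means followed the order control, RES, SUS, while the ranges of all neighbors overlapped. EE SUS mice were above EE control mice by 1.33 on the log2 scale (standard error 0.35, unadjusted p = 0.000345 and adjusted p = 0.175 by edgeR), with 6 of 9 SUS mice above every control. SH SUS mice were above SH control mice by 0.89 (standard error 0.34, unadjusted p = 0.0123, adjusted p = 0.9997 by edgeR), with 2 of 10 SUS mice above every control.

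H2-Aa and H2-Ab1, the chains of I-A, varied over a similar width. H2-Aa measured 0.523 ± 0.274 CPM (SD, n = 10) in SH control, 0.597 ± 0.220 CPM (SD, n = 7) in SH RES and 0.951 ± 0.694 CPM (SD, n = 10) in SH SUS mice, and 0.611 ± 0.332, 0.866 ± 0.364 and 1.26 ± 0.888 CPM (SD, n = 9 each) in EE control, EE RES and EE SUS mice. The lowest and the highest H2-Aa level of all 54 mice, 0.133 and 2.81 CPM, were both found among EE SUS mice. H2-Ab1 was the exception to the order in SH, where RES mice measured 0.715 ± 0.286 CPM (SD, n = 7), SUS mice 0.638 ± 0.288 CPM (SD, n = 10) and control mice 0.395 ± 0.234 CPM (SD, n = 10). All 7 SH RES mice exceeded the control median of H2-Ab1, and 3 of them exceeded every control, for a log2 fold change of 0.85 (standard error 0.40, unadjusted p = 0.0361, adjusted p = 0.9999 by edgeR). In EE it measured 0.466 ± 0.289, 0.652 ± 0.291 and 0.985 ± 0.703 CPM (SD, n = 9 each) in control, RES and SUS mice. H2-Eb1 had the smallest log2 fold change of the 4 in SUS against control mice of either housing, with means of 0.711, 0.713 and 0.933 CPM in SH control, RES and SUS mice and of 0.711, 0.855 and 1.19 CPM in EE control, RES and SUS mice. H2-Ea-ps, which would encode the alpha chain of I-E and is defective in the C57BL/6 strain, had no count in any of the 54 mice.

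**Figure D2:**
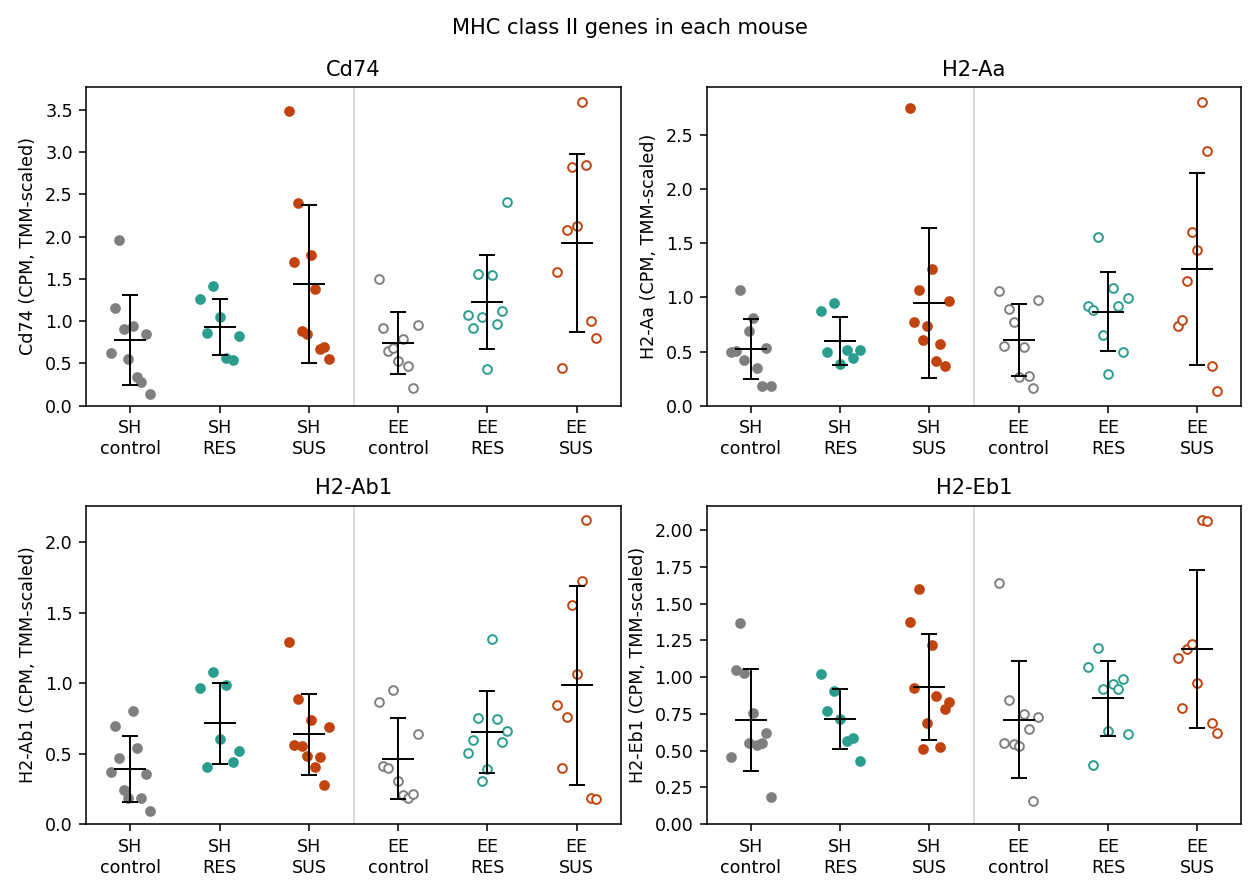
Level in CPM (y axes, linear from 0) of Cd74, H2-Aa, H2-Ab1 and H2-Eb1 in each mouse of the 6 groups (x axes), with filled points for SH, open points for EE and bars for the mean ± SD. EE SUS mice are the most spread, from 0.446 to 3.59 CPM for Cd74, and overlap EE control mice at the low end.

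A gene was called either at an adjusted p below 0.05 by edgeR or at the criterion of the study, which asks limma-voom for a fold change above 1.3 and a p below 0.05 before adjustment. By edgeR none of the 9 genes passed in EE SUS against EE control, where 0% of the 18283 genes tested did, although 4 of the 9 had an unadjusted p below 0.05, namely all 4 class II genes. At the study's criterion 3 of 9 were called, all higher in SUS mice, against 1.94% of all genes, and these were Cd74, H2-Ab1 and H2-Eb1. The log2 fold changes were 0.99 (standard error 0.36) for H2-Aa, 1.03 (standard error 0.35) for H2-Ab1 and 0.73 (standard error 0.27) for H2-Eb1, with edgeR adjusted p-values of 0.478, 0.404 and 0.476. In SH SUS against SH control, none of the 8 genes other than Lag3 passed by edgeR, where 0.0328% of all genes did, and 2 of them, Cd74 and H2-Ab1, met the criterion, against 0.93% of all genes. This count rests on values close to the threshold. It was 0 without SH control mouse 10, 4 without SH control mouse 3 and 1 when any of 23 other mice was left out. In SH RES against SH control, none passed by edgeR (0% of all genes), 1 had an unadjusted p below 0.05, and H2-Ab1 alone met the criterion, against 1.21% of all genes. It no longer did without SH control mouse 10 or without SH RES mouse 1, 3 or 5, which gave a count of 0.

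The 35 defeated mice were also set against the 19 unstressed mice of both housings, a contrast that reuses the mice above. The class II genes had the log2 fold changes 0.80 for Cd74 (standard error 0.23, edgeR adjusted p = 0.487), 0.76 for H2-Ab1 (standard error 0.23, adjusted p = 0.624), 0.62 for H2-Aa (standard error 0.24, adjusted p = 0.878) and 0.35 for H2-Eb1 (standard error 0.17, adjusted p = 0.987). Of the defeated mice, 31 of 35 exceeded the unstressed median of H2-Ab1, 29 that of Cd74, 27 that of H2-Eb1 and 24 that of H2-Aa. None of the 8 genes passed by edgeR, where 0.0438% of all genes did. All 4 class II genes and none of the class I genes met the study's criterion, 4 of 8 against 0.481% of all genes. The count was 2 without SH control mouse 10 and 2 without EE control mouse 8, the mice with the 2 lowest class II sums. The median log2 fold change of the 4 class II genes was 0.69, beside -0.00 for all genes tested. No dependence on housing was detected. In the contrast of the defeat effect in EE against that in SH, the class II genes had log2 values from -0.04 to 0.44 with standard errors of 0.34 to 0.48, and none of the 8 genes passed by edgeR (0% of all genes, none of the 8 with an unadjusted p below 0.05) or met the criterion (0 of 8, against 1.68% of all genes).

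Red cell genes were also higher in defeated mice. All 5 of the red cell list, which holds the globin genes Hba-a1, Hba-a2, Hbb-bs and Hbb-bt and the heme enzyme gene Alas2, were higher in defeated than in unstressed mice at an adjusted p below 0.05 by edgeR, and their summed median was 164 CPM in defeated and 82.7 CPM in unstressed mice. Within groups the class II genes had Pearson correlations of 0.145 to 0.202 with this list and rho of 0.260 to 0.318, none past an adjusted permutation p of 0.05, and H2-Ab1 had r = 0.394 without the 2 farthest mice. With the mean red cell score as a covariate, which was added after the data were seen, the log2 fold changes of defeated against unstressed mice were 0.53 for Cd74, 0.58 for H2-Ab1, 0.38 for H2-Aa and 0.22 for H2-Eb1, and 0 of the 8 genes met the criterion. In SH SUS against SH control mice, where all 5 red cell genes were also called by edgeR, the covariate gave 0.54 for Cd74, 0.54 for H2-Aa, 0.46 for H2-Ab1 and 0.23 for H2-Eb1, and 0 of the 8 genes met the criterion. In EE SUS against EE control mice it gave 1.09 for Cd74, 0.77 for H2-Aa, 0.87 for H2-Ab1 and 0.62 for H2-Eb1. The edgeR adjusted p of Cd74 was then 0.81 in place of 0.175, and those of H2-Aa, H2-Ab1 and H2-Eb1 were 0.888, 0.873 and 0.88. All 5 red cell genes met the study's criterion in this comparison, with a median log2 fold change of 1.09. All 5 red cell genes also met the criterion in SH RES and in EE RES against control mice, with median log2 fold changes of 1.02 and 0.74. In SH RES against SH control mice the class II values were 0.26 for Cd74, 0.19 for H2-Aa, 0.85 for H2-Ab1 and 0.01 for H2-Eb1. The red cell sum spanned 52.2 to 107 CPM in unstressed and 52.4 to 441 CPM in defeated mice. The summed border macrophage markers had a median of 17.7 CPM in unstressed and 18.1 CPM in defeated mice. Of the 7 choroid plexus markers tested, 0 had a positive log2 fold change in defeated mice and their median was -0.89, with none called by either rule. Against the controls of their housing, 0 of 7 were positive in SH RES and in SH SUS mice. In EE RES mice 1 was positive, and in EE SUS mice all 7 were, with a median of 0.38. The summed medians were 22.4 CPM in unstressed and 21.6 CPM in defeated mice, and the highest sum, 988 CPM, was that of SH control mouse 3. With the choroid plexus score as a covariate, the class II values of defeated against unstressed mice were 0.87 for Cd74, 0.77 for H2-Ab1, 0.68 for H2-Aa and 0.39 for H2-Eb1. Of the 8 dentate granule cell markers 0 had a positive value in defeated mice (median -0.09) and 0 in EE SUS against EE control mice (median -0.13), with none called. Against the controls of their housing, 0 were positive in EE RES (median -0.19), 1 in SH SUS (median -0.08) and 5 in SH RES mice (median 0.07). Itgax, the only called gene of the dendritic cell list, met the criterion of the study as higher in defeated against unstressed, SH RES against control, SH SUS against control and EE SUS against EE RES mice, and had at most 19 counts. The part of these markers other than through the scores given was not tested. With the macrophage score as a covariate, the 4 class II values of defeated against unstressed mice were 0.80 for Cd74, 0.77 for H2-Ab1, 0.62 for H2-Aa and 0.38 for H2-Eb1.

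EE SUS and EE RES mice, which had both been defeated, did not differ past either rule. Of the 9 genes, none passed by edgeR (0% of all genes, none with an unadjusted p below 0.05) and none met the criterion (0 of 9, against 1.1% of all genes). The class II genes had the largest log2 values, with 0.64 for Cd74 (standard error 0.33), 0.58 for H2-Ab1 (standard error 0.34), 0.53 for H2-Aa (standard error 0.35) and 0.48 for H2-Eb1 (standard error 0.26), each with an edgeR adjusted p of 0.9997. Without EE SUS mouse 2, Cd74 met the criterion. H2-Aa was 0.29 without EE SUS mouse 6 and 0.21 by limma, and H2-Ab1 was 0.35 without EE SUS mouse 7 and 0.23 by limma. With the border macrophage score as a covariate these values were 0.32, 0.21, 0.19 and 0.26. The border macrophage markers reached 27.4 CPM in EE SUS mouse 6, the highest of all mice, and this mouse also had the highest Cd74, H2-Aa and H2-Eb1 levels, at 3.59, 2.81 and 2.07 CPM. EE SUS mouse 7, with the highest H2-Ab1 level of 2.16 CPM, had the highest microglial markers, at 772 CPM. In SH the fitted SUS minus RES values, for which 0% of all genes passed by edgeR and 1.14% met the criterion, were 0.63 for Cd74, 0.67 for H2-Aa, 0.39 for H2-Eb1 and -0.16 for H2-Ab1, and are given as a description. EE RES mice were between EE control and EE SUS mice, with log2 values against control of 0.69 for Cd74 (standard error 0.37, edgeR adjusted p = 0.639), 0.46 for H2-Aa, 0.45 for H2-Ab1 and 0.25 for H2-Eb1. None of the 9 genes passed there by edgeR (0% of all genes, none with an unadjusted p below 0.05), and 0 of 9 met the criterion, against 1.17% of all genes. Cd74 met it without EE RES mouse 5.

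Housing was compared in unstressed mice. EE mice had also been kept in larger groups per cage than SH mice. Cages did not enter the fit, which treated mice as independent. In EE control against SH control, none of the 9 genes passed by edgeR, where 1 of 18283 genes did (0.00547%), and Lag3 was the only one with an unadjusted p below 0.05. None met the criterion (0 of 9, against 1.12% of all genes). The class II genes had log2 values from -0.04 to 0.27 with standard errors of 0.28 to 0.40, and the class I genes values from -0.01 to 0.09.

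**Figure D3:**
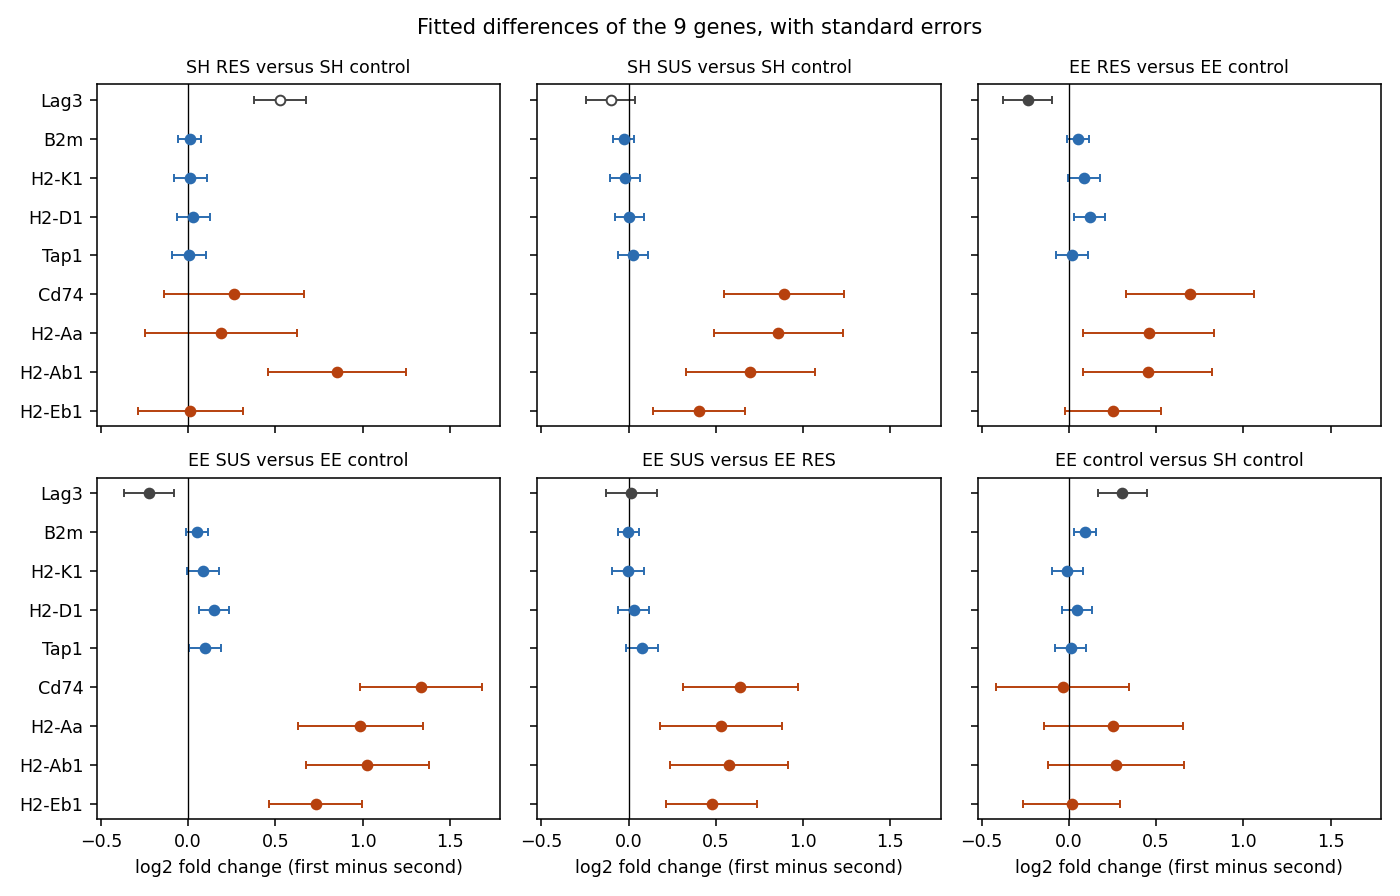
Fitted log2 fold change (x axes, first group minus second) with its standard error for each of the 9 genes (y axes) in 6 comparisons, with Lag3 in gray, class I in blue and class II in red, and open points where Lag3 was not tested. The class II genes lie to the right of 0 in both comparisons of SUS with control mice, up to 1.33 for Cd74 in EE, while the class I genes stay within 0.15 of 0.

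The genes that load and regulate class II were examined next. Of the 16 other genes of the class II pathway, 11 passed the filter, and none had an adjusted p below 0.05 or met the study's criterion in any of the 8 comparisons. Their median log2 fold change was -0.03 in EE SUS against EE control and -0.02 in defeated against unstressed mice. Ifi30, which encodes the thiol reductase that unfolds antigens, measured 2.15 ± 1.10 CPM in EE SUS and 1.74 ± 0.335 CPM in EE RES mice, and Lgmn, a lysosomal protease, 104 ± 11.6 and 97.6 ± 4.26 CPM (SD, n = 9 each). Ciita, the class II transactivator, had at most 13 counts and did not pass the filter, so a difference in it was not detectable at this depth.

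The class I members differed little between groups. B2m measured 47.2 ± 3.96 CPM (SD, n = 10) in SH control, 47.5 ± 3.19 CPM (SD, n = 7) in SH RES and 46.3 ± 4.83 CPM (SD, n = 10) in SH SUS mice, and 50.3 ± 3.03, 52.1 ± 6.32 and 52.1 ± 6.06 CPM (SD, n = 9 each) in EE control, EE RES and EE SUS mice. H2-K1 had group means from 17.4 to 18.7 CPM, H2-D1 from 21.3 to 24.4 CPM and Tap1 from 3.73 to 4.01 CPM. Across the 8 comparisons tested, the largest absolute log2 fold change of a class I gene was 0.15, for H2-D1 in EE SUS against EE control mice (standard error 0.09, edgeR adjusted p = 0.7004), and this adjusted p was the smallest of any class I gene. In defeated against unstressed mice, where all 54 mice entered, the 4 values were between 0.02 and 0.08 with standard errors of 0.04 to 0.06. The precision behind these genes was better than for class II, with median counts of 1048 for B2m, 476 for H2-D1, 376 for H2-K1 and 83.0 for Tap1.

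**Figure D4:**
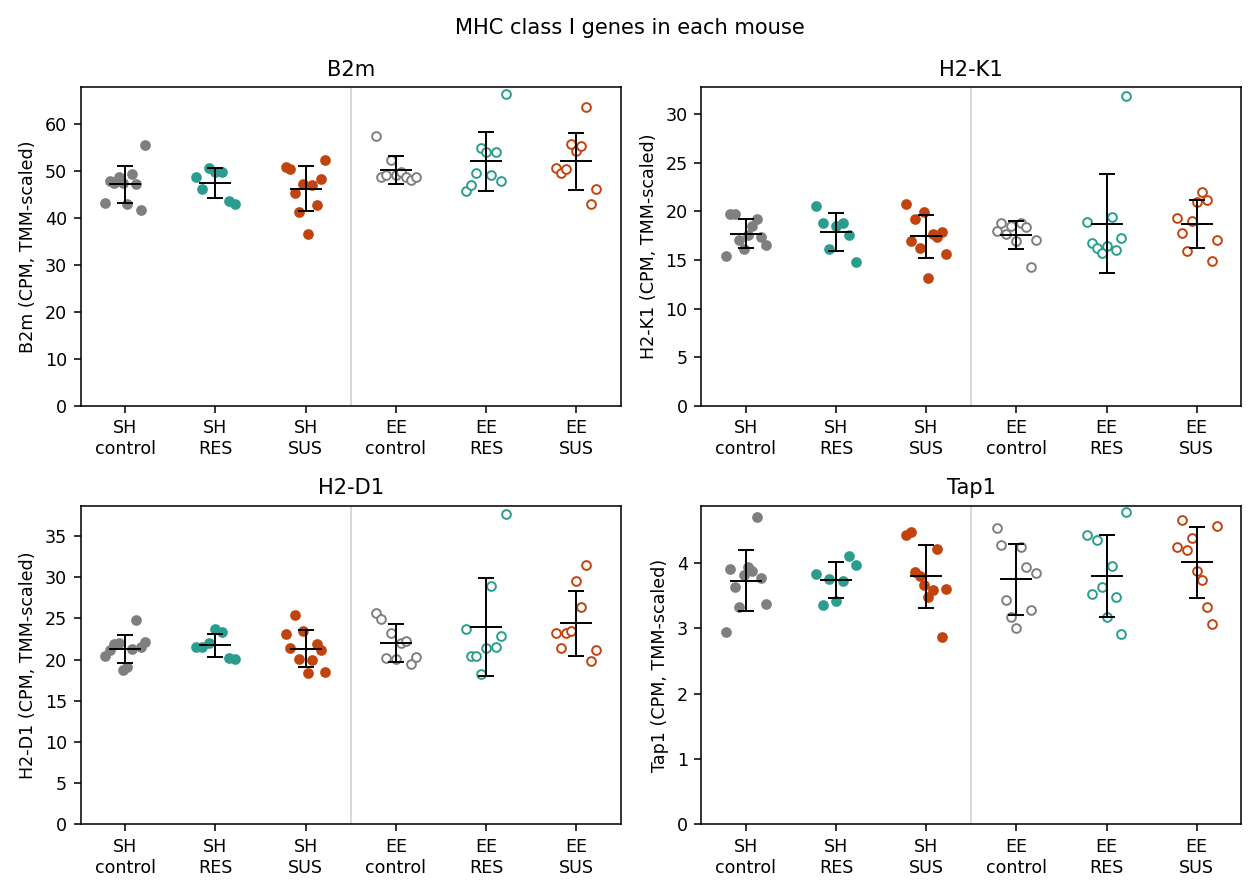
Level in CPM (y axes, linear from 0) of B2m, H2-K1, H2-D1 and Tap1 in each mouse of the 6 groups (x axes), with filled points for SH, open points for EE and bars for the mean ± SD. EE RES mouse 9 lies above the other mice for H2-K1, at 31.8 CPM, and H2-D1, at 37.7 CPM.

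EE RES mouse 9 had the highest level of all 54 mice for every class I member, with 66.4 CPM of B2m, 31.8 CPM of H2-K1, 37.7 CPM of H2-D1 and 4.78 CPM of Tap1. The other EE RES mice reached at most 19.4 CPM of H2-K1. The same mouse had the highest sum of T and NK cell markers, 3.74 CPM, and ranked 5 of 54 for microglial markers and for Cd74, but 39 for H2-Eb1. Without it, the log2 fold change of EE RES against EE control was -0.04 in place of 0.09 for H2-K1 and 0.01 in place of 0.12 for H2-D1, and that of EE SUS against EE RES was 0.13 for H2-K1 (standard error 0.07, edgeR adjusted p = 0.9994) and 0.14 for H2-D1 (standard error 0.08, edgeR adjusted p = 0.9994). Heavy chain genes resemble each other, so shared sequence was counted. No stretch as long as a read of the H2-K1 transcript occurred in a transcript of another gene, and for H2-D1 3.44% of 1978 such stretches did, in other H2 genes and not in H2-K1. Tap1 overlaps Psmb9 on the opposite strand by 212 exonic bases, and the counts used were those of the gene's own strand.

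The wider class I and interferon lists were examined by the same rules. Of 20 other genes of class I presentation, 19 were tested and none passed by edgeR. At the study's criterion H2-M3 was called in EE SUS against EE control and Nlrc5, the class I transactivator, in SH SUS against SH control, both higher in SUS mice, which is 1 of 19 each beside 1.94% and 0.93% of all genes. No gene was called in the other 6 comparisons. H2-T23, which encodes the Qa-1 heavy chain, measured 5.81 ± 0.841 CPM in EE SUS and 5.25 ± 1.21 CPM in EE RES mice, and the chaperone gene Calr 446 ± 47.2 and 418 ± 56.3 CPM (SD, n = 9 each). Of 18 interferon signaling genes, 17 were tested and none passed by edgeR, while Irf7, Isg15, Ifit1 and Socs1 each met the criterion once, in 4 different comparisons in which 0.93% to 1.21% of all genes did. Ifit3, an interferon-induced antiviral gene, measured 5.79 ± 0.920 CPM in EE SUS and 4.78 ± 1.04 CPM in EE RES mice (SD, n = 9 each, log2 fold change 0.28, edgeR adjusted p = 0.9997), and Irf1 12.2 ± 1.95 and 11.3 ± 0.788 CPM. The median log2 fold change of these interferon genes lay between -0.03 and 0.09 in the 8 comparisons.

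Whether the genes varied together between mice of the same group was examined with log2 CPM values after removing the group means, over 54 mice and 36 pairs, with permutation of mice within groups. Of the 36 pairs, 15 had an adjusted permutation p below 0.05, and all 15 correlations were positive. All 6 class II pairs passed, with Pearson r from 0.598 to 0.809. H2-Aa and H2-Ab1 had r = 0.809 (rho 0.794, adjusted permutation p = 5.14e-05, the unadjusted 1e-05 being the smallest that 100000 resamples can give), and 0.769 without the 2 mice farthest from the median. Cd74 and H2-Eb1, which lie on different chromosomes, had r = 0.772 (rho 0.770, adjusted permutation p = 5.14e-05), and 0.731 without those 2 mice. Among class I genes, H2-K1 and H2-D1 had r = 0.815 (rho 0.777, adjusted permutation p = 5.14e-05), and 0.729 without the 2 farthest mice. B2m had r = 0.557 with H2-K1 and 0.551 with H2-D1 (adjusted permutation p of 0.00112 and 0.00108), which were 0.362 and 0.416 without the 2 farthest mice, while Tap1 passed only with H2-K1 (r = 0.353, rho 0.264, adjusted permutation p = 0.0423 for r and 0.132 for rho, and r = 0.244 without the 2 farthest mice). Between the classes 5 of 16 pairs passed, with r from 0.301 to 0.428. Lag3 passed with none of the other 8 genes. Its correlations ran from -0.092 with Tap1 to 0.200 with B2m, and that with Cd74 was -0.022 (rho -0.00, adjusted permutation p = 0.884).

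The same deviations were set against the mean of each marker list, 99 relations in all. Of these, 25 had an adjusted permutation p below 0.05. B2m followed microglia, with r = 0.70 (rho 0.724, adjusted permutation p = 0.00099, and 0.728 without the 2 farthest mice). The class II genes followed border macrophage markers, with r of 0.545 for Cd74, 0.535 for H2-Ab1, 0.533 for H2-Eb1 and 0.524 for H2-Aa, and meningeal fibroblast markers, with r from 0.451 to 0.570. They also followed the dendritic cell list, of which 3 of 7 genes (Flt3, Zbtb46 and Itgax) passed the filter, with r from 0.369 to 0.510. Endothelial markers passed with 3 of the class II genes, with r of 0.389 for Cd74, 0.361 for H2-Ab1 and 0.404 for H2-Eb1 (adjusted permutation p of 0.0272, 0.0347 and 0.0214). Against dentate granule cell markers Cd74 and H2-Eb1 had negative correlations of -0.354 and -0.427 (adjusted permutation p of 0.0482 and 0.0272, and of 0.0612 and 0.0209 for rho). With microglia only H2-Eb1 of the class II genes passed (r = 0.367, rho 0.309, adjusted permutation p of 0.0352 and 0.0931). H2-Ab1 had the same r of 0.367 with microglia, at an adjusted permutation p of 0.0853. H2-K1 and H2-D1 followed both microglia, with r of 0.407 and 0.391, and, like those class II genes, endothelial markers, with r of 0.419 and 0.422. H2-D1 and microglia had a rho of 0.345 (adjusted permutation p = 0.0633) and r = 0.201 without the 2 farthest mice. H2-K1 also passed with border macrophage markers (r = 0.342, adjusted permutation p = 0.0278 for r and 0.0931 for rho). Tap1 passed with meningeal fibroblast markers (r = 0.398, adjusted permutation p = 0.032 for r and 0.0355 for rho). Lag3 passed with no list, and its largest correlations were 0.283 with microglia and 0.280 with dendritic cells (adjusted permutation p of 0.142 and 0.141). Among genes outside the list, those with the pattern most like Cd74 were Tgfbi, which is expressed by macrophages and stromal cells, with r = 0.653, Wnt4 (0.597), Cd34 (0.586), Tgm2 (0.585) and Cgnl1 (0.578). These were picked as the largest among 15240 genes searched and were not tested.

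**Figure D5:**
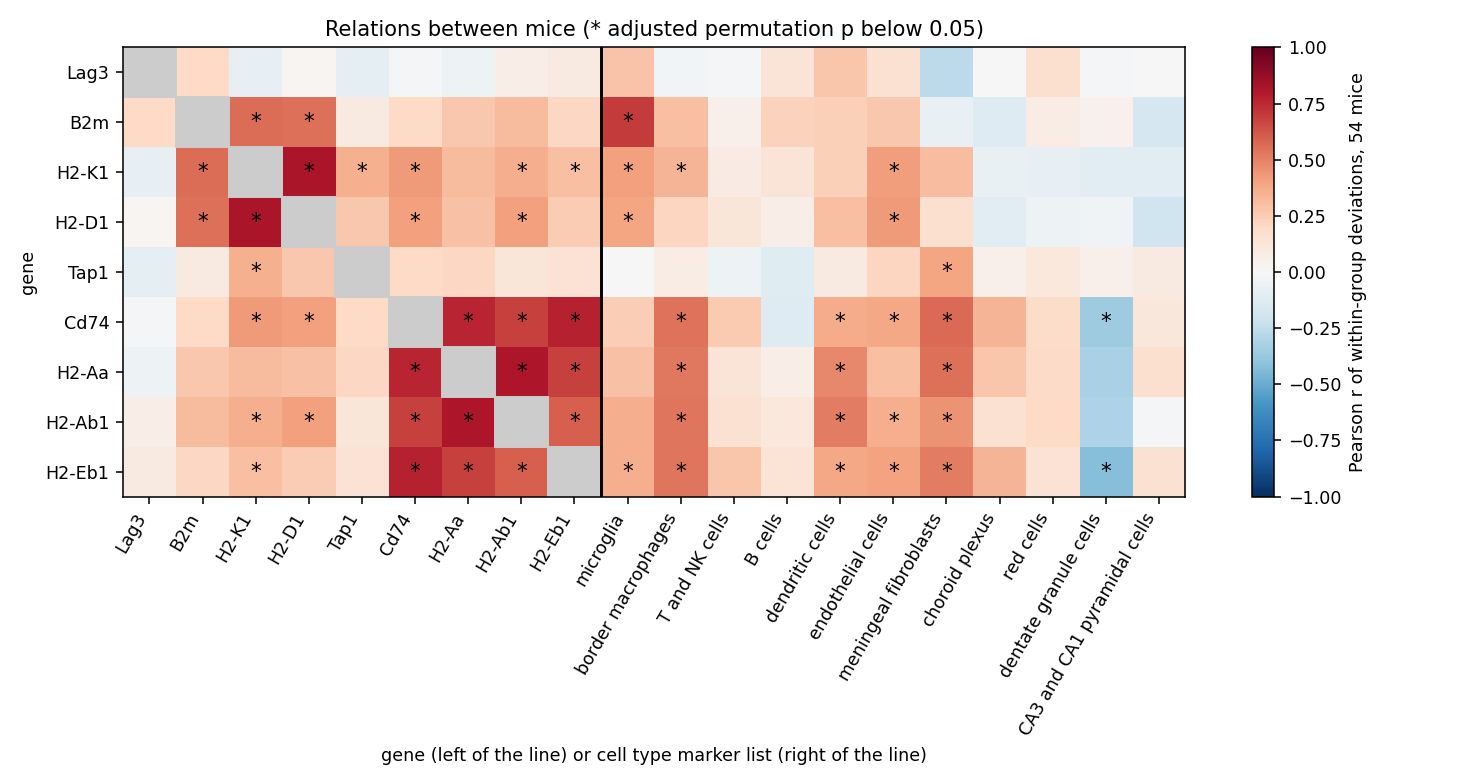
Pearson r (color scale from -1 to 1) between within-group deviations of log2 CPM over 54 mice, for the 9 genes (rows) against each other and against 11 cell type marker lists (columns right of the line), with an asterisk where the adjusted permutation p is below 0.05. The class II block holds r from 0.598 to 0.809, and the row of Lag3 holds no asterisk.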

How the data were processed

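RNA of the ventral dentate gyrus had been sequenced in 125-base read pairs from 54 mice (55 libraries, since EE control mouse 9 was run in 2 runs, which were summed). According to the methods, the authors discarded low-quality reads, aligned the rest with STAR to GRCm38 and counted genes by featureCounts; the submitters' notes name STAR, Picard and mm10. The deposited tables hold raw counts per Ensembl gene in the layout of STAR, in 3 columns by strand, with no normalization. The reverse-strand column was used, as the library kit was stranded, and forward-strand counts were 3.51% to 4.13% of stranded counts. Rows that name no gene held 47.1% to 54.2% of read pairs and were left out. Of 45318 identifiers, 44585 matched GENCODE M21 for names and positions.

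Mice were grouped by the labels. All 54 mice entered 1 fit with edgeR 4.0.16 (TMM, filterByExpr, quasi-likelihood test, Benjamini-Hochberg over the 18283 genes kept), called at an adjusted p of 0.05. Beside it, limma 3.58.1 (voom), the tool of the study, was run with the thresholds the study used, a fold change of 1.3 and a p of 0.05 before adjustment. Levels are CPM on TMM-scaled library sizes. Relations used log2 CPM with a prior count of 2, minus group means, with 100000 two-sided permutations within groups and Benjamini-Hochberg over each family. The script was tested on simulated counts. DESeq2 1.42.0, other scalings, filters, strands, covariates and each mouse left out were alternatives. The genes and gene lists were chosen with earlier results of these data known. Genes of a list were named when their adjusted p was below 0.05, otherwise the 2 with the smallest p in EE SUS against EE RES. A gene that this rule names is not reported here. Promoters came from RefSeq (GRCm38.p6). Depth sets the precision of the low genes, and intervals and p-values cover the spread between these mice. The methods give a number of replicates that is below the number of deposited mice for most groups, without naming them, so all mapped mice were used.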

Additional observations from a re-analysis of the deposited data

Results flagged for a closer look

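Within each group, a mouse was looked at again when its gap to the nearest mouse took up more of the group's range than Dixon's 95% critical value allows. Of 54 combinations of gene and group 7 met this rule, and chance alone gives about 1 in 20.

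EE RES mouse 9 was far above the other 8 EE RES mice for H2-K1, at 31.8 CPM against 15.7 to 19.4 CPM, and for B2m, at 66.4 CPM against 45.7 to 54.9 CPM. EE control mouse 1 was above its group for B2m, at 57.6 CPM against 48.1 to 52.5 CPM, and for H2-Eb1, at 1.64 CPM against 0.161 to 0.845 CPM. EE control mouse 8 was below its group for H2-K1, at 14.3 CPM against 16.9 to 18.8 CPM. It had the highest Lag3 level of all mice, 1.93 CPM, and the lowest border macrophage and meningeal fibroblast sums, 13.8 and 31.3 CPM. SH SUS mouse 1 was above its group for H2-Aa, at 2.75 CPM against 0.369 to 1.26 CPM, and EE RES mouse 6 for H2-Ab1, at 1.31 CPM against 0.306 to 0.755 CPM. No Lag3, Cd74, H2-D1 or Tap1 value met the rule.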

How the results depend on the processing

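No member reached an adjusted p of 0.05 in any of the 8 tested comparisons under any of 73 settings, which include edgeR, limma and DESeq2 and each mouse left out, and the smallest value was 0.0846 for Cd74 in EE SUS against EE control without EE SUS mouse 9. The Lag3 value of SH SUS versus SH RES, the contrast that selected the gene, was -0.71 to -0.58 with each mouse left out. This range is a description and no support for the difference. Counting error limits the low genes most. Differences in them well above their standard errors also did not pass. Cd74 in EE SUS against EE control, at 1.33 with a standard error of 0.35, had an edgeR adjusted p of 0.175.

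Counts at the study's criterion moved more. With the replicate number as a block they were 1 in EE RES against control and 0 in SH RES against control. They were 4 in SH SUS against control and 0 in EE SUS against EE RES with this block. The Lag3 value of SH SUS versus SH RES, the contrast that selected it, was then -0.71, given as a description. The numbers did not pair the mice, as same-numbered mice of different groups had a median correlation of deviations of 0.039 and 46 of 126 pairs exceeded 0.1. EE RES against control gave 1 with the choroid plexus score and 1 with the macrophage score. With the red cell score, added after the data were seen, SH RES against control, SH SUS against control and defeated against unstressed gave 0 each. SH SUS against control gave 1 without the low-count filter. With each mouse left out the counts ran from 0 to 1 in EE SUS against EE RES, EE RES against control and SH RES against control, from 0 to 4 in SH SUS against control, from 2 to 4 in EE SUS against control and from 2 to 4 in defeated against unstressed. The cause was not tested.

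Fold changes that turned sign were small. On the log2 scale, Lag3 was -0.01 in EE SUS against EE RES with unstranded counts and 0.01 in defeated against unstressed with unstranded counts, limma or the block. In EE control against SH control Cd74 was 0.15 by limma and 0.02 with the choroid score, H2-Eb1 -0.04 with the block, and H2-Aa, H2-Ab1 and H2-Eb1 -0.01, -0.00 and -0.21 with the macrophage score. In SH RES against control H2-Eb1 was -0.04 with unstranded counts, -0.15 with the block and -0.12 with the red cell score, which gave -0.01 for Cd74 and -0.06 for H2-Aa. H2-Ab1 was 0.02 for defeat by housing with the red cell score and 0.01 in SH SUS against SH RES with the block. With each mouse left out, the ranges that crossed 0 were -0.03 to 0.07 (Lag3) in EE SUS against EE RES, -0.21 to 0.25 (Cd74) and -0.22 to 0.19 (H2-Eb1) in EE control against SH control, -0.10 to 0.18 (H2-Eb1) in SH RES against control, -0.05 to 0.02 (Lag3) in defeated against unstressed and -0.21 to 0.14 (H2-Ab1) for defeat by housing. Of 36 differences of single class I genes, 17 turned sign in some setting, none of them above 0.09 as reported. The relations among the genes numbered 15 with a prior count of 0.5 or unstranded counts and 17 without the 2 farthest mice.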
